A study of Homo sapiens with 12 samples.

Results

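Keratins are the proteins of the intermediate filaments of epithelial cells. The keratin genes were taken as every row of the count tables whose symbol is KRT, a number and at most 1 further letter, which leaves out the keratin-associated proteins. This gave 56 of 23228 genes, described here across 4 groups of 3 libraries (A, B and C). RNA came from MDA-MB-468, an established human triple-negative breast cancer line, so all groups are 1 line grown in culture. The DMSO group received the solvent. The ipatasertib group received ipatasertib, an inhibitor of the kinase AKT, at 5 µM, the tazemetostat group received tazemetostat, an inhibitor of the histone methyltransferase EZH2, at 5 µM, and the combination group received both at these doses. Tazemetostat or DMSO was given from day -5 and ipatasertib from day 0. All groups were in medium with 2% FBS after day 0, and poly(A) RNA was collected 24 h later. Nothing in the labels ties A, B and C to separate cultures, and the p-values therefore measure a spread between libraries that may be technical.

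Type I (acidic) and type II (basic) keratins pair with each other, and the filaments they form are anchored at desmosomes and hemidesmosomes. KRT8 and KRT18 are the pair of simple epithelia, joined in luminal breast cells by KRT7 and KRT19. KRT5 and KRT14 are the pair of the basal layer of stratified epithelia and of basal breast cells, and KRT17 and the KRT6 genes are found in basal-type breast tumours and in stressed or wounded epidermis. Other members serve the upper epidermis, the cornea, mucosal surfaces, the hair shaft and its root sheath. Members were placed accordingly into 6 basal, 4 luminal, 2 other simple, 16 other epidermal and mucosal, 17 hair and 9 root sheath keratins, and 2 stayed without a class (KRT222 and the pseudogene KRT42P).

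The promoters of KRT5, KRT9, KRT10 and KRT38 are shown because, among keratins of at least 5 CPM with an entry in the RefSeq promoter table (GRCh38.p14), these 4 had the largest falls with the combination. Each line gives the 250 bases before the start of transcription, 5′ to 3′, with TATAAA and CG in capitals.
KRT5 (chr12:52520395-52520644, minus strand): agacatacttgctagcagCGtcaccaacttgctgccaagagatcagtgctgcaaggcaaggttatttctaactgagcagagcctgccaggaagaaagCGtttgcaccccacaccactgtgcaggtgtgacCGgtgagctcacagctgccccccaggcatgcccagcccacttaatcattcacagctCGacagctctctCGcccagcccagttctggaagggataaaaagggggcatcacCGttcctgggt
KRT9 (chr17:41572060-41572309, minus strand): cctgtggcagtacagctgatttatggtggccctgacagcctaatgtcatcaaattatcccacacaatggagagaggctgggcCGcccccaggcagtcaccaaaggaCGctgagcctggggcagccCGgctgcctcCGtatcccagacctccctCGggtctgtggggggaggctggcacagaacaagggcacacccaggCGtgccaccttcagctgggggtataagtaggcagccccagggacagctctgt
KRT10 (chr17:40822615-40822864, minus strand): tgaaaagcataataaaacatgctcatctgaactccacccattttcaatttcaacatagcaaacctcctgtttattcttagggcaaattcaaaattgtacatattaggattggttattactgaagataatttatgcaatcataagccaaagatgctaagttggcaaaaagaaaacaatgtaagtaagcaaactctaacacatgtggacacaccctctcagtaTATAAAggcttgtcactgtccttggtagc
KRT38 (chr17:41440984-41441233, minus strand): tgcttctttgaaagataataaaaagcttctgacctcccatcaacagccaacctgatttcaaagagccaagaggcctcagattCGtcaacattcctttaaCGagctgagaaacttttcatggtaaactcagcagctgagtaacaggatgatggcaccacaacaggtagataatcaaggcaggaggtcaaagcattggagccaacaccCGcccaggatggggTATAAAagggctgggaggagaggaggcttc
TATAAA starts at position -29 in KRT10 and -30 in KRT38, counted from the start of transcription, and these letters are not in the windows of KRT5 and KRT9. The table held 34 of the 56 keratins, with 250 bases before and 50 after the start. Absent were, among others, KRT7, KRT14, KRT15, KRT16, KRT17, KRT18, KRT19, KRT23 and KRT81. The shares that follow therefore leave out many of the keratins most expressed here. Searched on both strands, TATAAA was in 20 of the 34 windows (58.8%), at -35 to -25 in 15 of them, against 11.5% of all 35116 promoters in the table. The windows held a median of 2 CG dinucleotides (range 0 to 8), against a median of 14 (quartiles 4 and 28) over all promoters. GGGCGG, the GC box, was in 17.6% of keratin windows against 45% of all. This motif contains a CG, and its other strand can share an end base with a TGTTTAC match. TGANTCA (the AP-1 motif) and TGTTTAC (a FOXO motif) were in 0 of 34 windows, against 7.71% and 3.42% of all promoters. At such low shares 34 windows are too few for a difference to be read from the 0. CACCC was in 76.5% of keratin windows against 59.9% of all, and CAGNTG, the E-box, in 61.8% against 49.9%. A match is a description of letters and not a measured site.

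Each library held 12981622 to 28746965 reads in genes, and 3 reads in a library correspond to 0.106 to 0.228 CPM (reads per 1000000 on totals scaled by TMM factors). The combination libraries were the shallowest, at 12981622 to 17948209 reads. The A library stood apart in each group: over genes, its counts differed from B and C with a chi-square per degree of freedom of 4.18 to 14.7, against 2.35 to 3.47 between B and C. In the DMSO group, 19.9% ± 1.43 (SD, n = 3) of the counted total lay outside genes. This share was 23.3% ± 1.0 under ipatasertib, 21.1% ± 1.65 under tazemetostat and 25.2% ± 0.952 for both drugs. The part of depth and of this share in the results was not tested. The libraries carried the epithelial markers EPCAM (541 CPM with DMSO) and CDH1 (151 CPM), high EGFR (1065 CPM), and little ESR1 (1.71 CPM) and no PGR reads with DMSO. ERBB2 RNA was present, at 41.7 CPM with DMSO, and was higher under tazemetostat at 52.55 CPM (edgeR adjusted p = 0.00773). Of 8 fibroblast markers, 1 to 3 exceeded 1 CPM per group, and their summed level was 10.8 to 12.5 CPM for DMSO, 6.19 to 6.78 under ipatasertib, 16.7 to 20.04 under tazemetostat and 11 to 13.4 for both drugs. This sum moved with the drugs, and its part in the results was not tested. Of the leukocyte markers, CD14 was at 57.6 to 88.3 CPM over the group means and CD68 at 2.94 to 4.03, while the defining gene PTPRC was at 0.0478 CPM with DMSO and 0.601 with the combination, and CD3E at 0.0263 or less. Of the endothelial markers, KDR was at 13.6 to 29.3 CPM and PECAM1 at 0.351 or less, and CDH5 rose from 0.15 CPM with DMSO to 3.83 with the combination. Of the melanocyte markers, PMEL was at 1.19 to 1.755 CPM over the group means, MLANA at 0.332 to 0.503 and DCT at 0.105 or less. TYR was at 0 in all libraries. The part of these genes in the results was not tested.

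**Figure D1:**
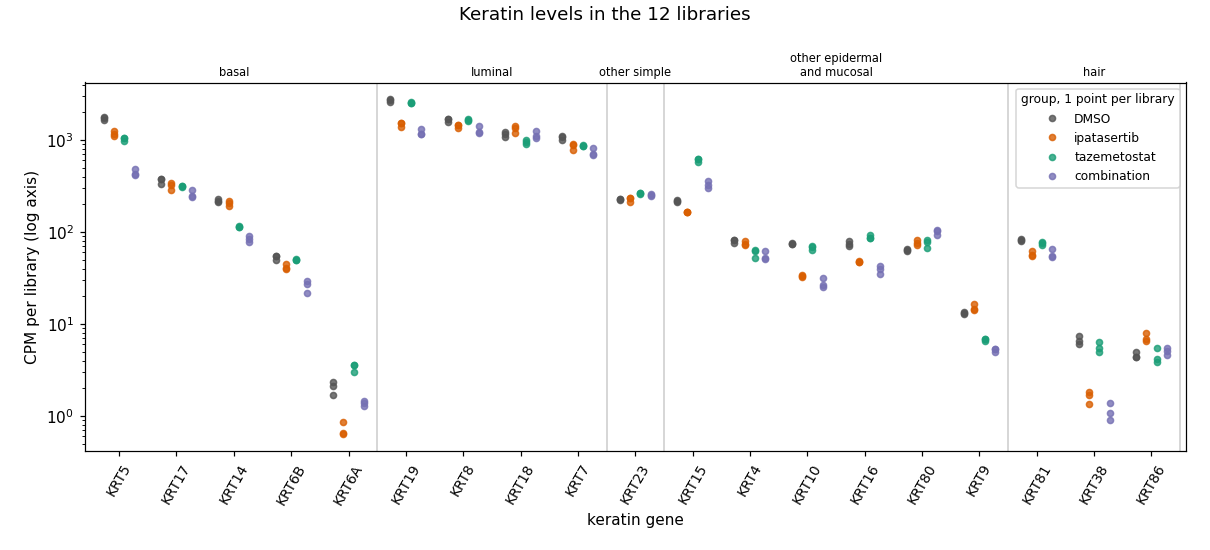
Level of the 19 most expressed or most changed keratins in each of the 12 libraries, in CPM on a log axis, grouped by class and ordered by the DMSO mean. KRT5 and KRT14 step down to their lowest points with the combination, KRT15 is highest with tazemetostat, and KRT19, KRT10 and KRT38 are low in both groups that received ipatasertib.

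Of the 56 keratins, 5 had no read in any library (KRT25, KRT26, KRT27, KRT33B and KRT77), 24 had at most 12 reads in a library and were not tested, and 27 passed the filter on low counts. Keratins as a whole took 0.95% ± 0.0334 of the reads in genes in the DMSO group. The share was 0.751% ± 0.0366 under ipatasertib, 0.895% ± 0.0259 under tazemetostat and 0.614% ± 0.0482 under both drugs. Per kilobase of coding sequence, the DMSO order was KRT19 (2255 ± 80.2 CPM per kb), KRT8 (1079 ± 51.0), KRT5 (970.8 ± 41.9), KRT18 (903 ± 52.5) and KRT7 (756 ± 36.8). KRT5 and KRT18 differed by less than the sum of their SDs, and every other neighbouring pair among these was further apart than that. KRT17 (279 ± 19.5), KRT23 (180 ± 2.28), KRT15 (160 ± 3.24) and KRT14 (155 ± 4.61) came next, the last pair again within their SDs. With the combination KRT5 ranked 5 at 250 ± 20.2 CPM per kb, and KRT15 followed at 238 ± 22, within their SDs.

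The tests compare groups in edgeR's quasi-likelihood test with Benjamini-Hochberg adjustment over 14571 genes, and a gene is called at adjusted p under 0.05. With ipatasertib against DMSO, 15 of the 27 tested keratins were called lower and 3 higher, where 23.1% of all tested genes were called lower and 24% higher. With tazemetostat, 8 were called lower and 6 higher, against a background of 21.3% and 25.9%. With the combination, 16 were called lower and 4 higher, against 30% and 34.4%. The median log2 fold change of the tested keratins was -0.32, -0.12 and -0.54 in these comparisons, and that of all tested genes 0.004, 0.009 and 0.03. Among the 18 keratins of at least 5 CPM in their highest group, 11, 7 and 13 were called lower, where genes of that level were called lower at 27.4%, 25.4% and 35.6%. Without the A library of every group, the calls were 14 lower and 4 higher with ipatasertib, 9 and 6 under tazemetostat, and 17 and 4 with the combination. In that fit 7189, 8138 and 9756 of 14613 genes were called in these comparisons, 3601, 4321 and 5107 of them higher. The reported fit called 6864, 6874 and 9389 of 14571 genes. The 27 are the members that passed the filter, not the whole family, and all comparisons with DMSO share the same 3 DMSO libraries. In RNA from whole cultures, fewer cells of a kind and less RNA per cell cannot be told apart.

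**Figure D2:**
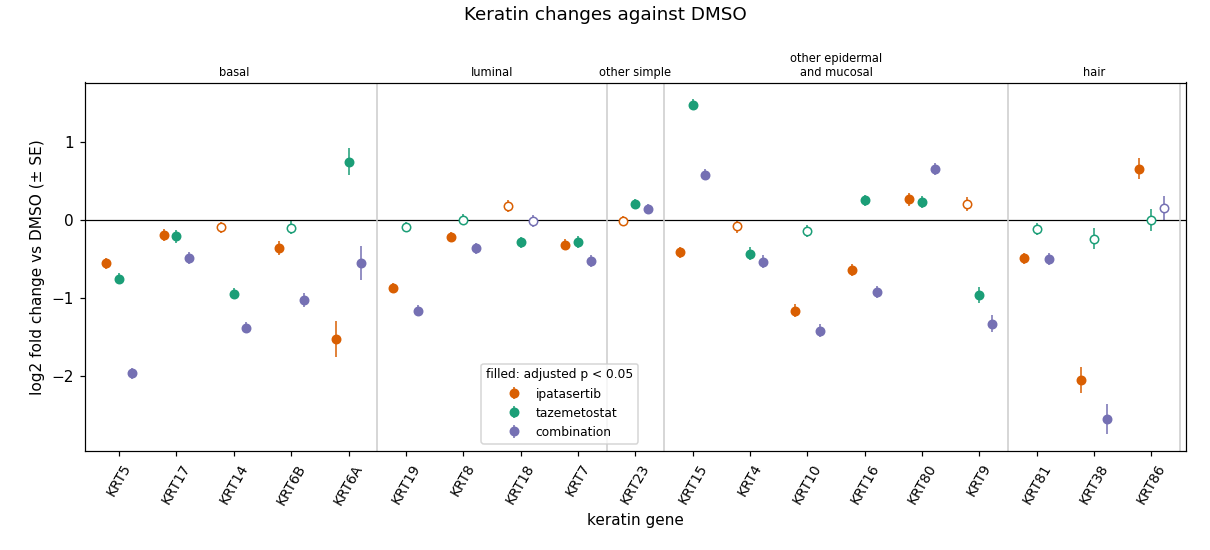
Log2 fold change against DMSO with its standard error for the same 19 keratins under ipatasertib, tazemetostat and the combination. Filled points passed adjusted p under 0.05 in edgeR's quasi-likelihood test. The combination points of KRT5 (-1.96), KRT14 (-1.38) and KRT6B (-1.02) lie below both single-drug points.

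Among the basal keratins, KRT5 fell with each drug and most with both, KRT14 fell with tazemetostat, and all 5 tested members fell with the combination. Ipatasertib lowered 4 of the 5, and tazemetostat lowered 3 and raised 1 (KRT6A). Of all tested genes, 23.1%, 21.3% and 30% were called lower with ipatasertib, tazemetostat and the combination, and 25.9% higher with tazemetostat. KRT5 stood at 1636, 1780 and 1739 CPM in the DMSO libraries, 1109, 1162 and 1243 under ipatasertib, 976, 1044 and 1046 under tazemetostat, and 484, 421 and 423 with the combination. No group of KRT5 values overlapped another. The log2 fold change against DMSO was -0.55 ± 0.068 (SE) under ipatasertib, -0.75 ± 0.068 under tazemetostat and -1.96 ± 0.070 with the combination (edgeR adjusted p = 9.28e-07, 8.27e-09 and 4.4e-16). The combination left 0.258 of the DMSO level.

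KRT14, the type I partner of KRT5, stood at 213, 219 and 226 CPM with DMSO and 191, 207 and 220.0 CPM under ipatasertib, and these libraries overlapped. It was 113, 114 and 115 CPM under tazemetostat and 91.5, 78.6 and 83.3 CPM with the combination, both groups below every DMSO and ipatasertib library. Its log2 fold change was -0.09 ± 0.068 under ipatasertib (edgeR adjusted p = 0.274), -0.94 ± 0.069 under tazemetostat (2.34e-10) and -1.38 ± 0.071 with the combination (2.39e-13). Of the 50-base windows in KRT14 transcripts, 23.8% also occur in another gene, in KRT16 more often than in any other. Part of the KRT14 reads may therefore be lost or shared.

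KRT17, which marks basal-type tumours, had the smallest change of the 5 tested basal keratins with the combination. Its level was 332 to 378 CPM with DMSO, 284 to 340 under ipatasertib, 309 to 314 under tazemetostat and 238 to 286 with the combination. The fall with the combination was -0.49 ± 0.078 (edgeR adjusted p = 1.12e-05), while the ipatasertib call at -0.19 (adjusted p = 0.0492) was lost with the replicate letter as a block in edgeR (0.0798). The tazemetostat call at -0.21 was also lost with that block (edgeR adjusted p = 0.0539). Both calls were lost without DMSO B or DMSO C as well, and the ipatasertib call without ipatasertib A (edgeR adjusted p = 0.101 to 0.18).

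KRT6B and KRT6A, keratins of wounded and fast-growing epidermis, went different ways under tazemetostat. KRT6B was at 54.9, 55.4 and 49.9 CPM with DMSO, 39.2, 40.5 and 45.3 under ipatasertib, 49.1, 49.97 and 50.4 under tazemetostat and 27.4, 21.8 and 29.3 with the combination. It fell with ipatasertib (-0.36 ± 0.086) and with the combination (-1.02 ± 0.092), and its value of -0.10 ± 0.086 under tazemetostat did not pass. KRT6A, at 2.05 ± 0.352 CPM with DMSO, fell to 0.713 ± 0.123 under ipatasertib and rose to 3.38 ± 0.346 under tazemetostat (log2 fold changes -1.52 and 0.74, edgeR adjusted p = 1.05e-05 and 0.000928). Its combination call (-0.55, adjusted p = 0.0294) was lost in DESeq2 (0.079), and in edgeR without DMSO B or C or any 1 of the combination libraries (0.0544 to 0.0951). These genes share 47.1% (KRT6B) and 39.1% (KRT6A) of their 50-base windows with other genes, with KRT6C more often than with any other. KRT6C itself had too few reads to be tested.

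Among the luminal keratins, KRT19 fell where ipatasertib was present, KRT7 fell in all treated groups, KRT8 fell with ipatasertib and with the combination, and KRT18 fell with tazemetostat. Ipatasertib lowered 3 of the 4, tazemetostat 2 and the combination 3, where 23.1%, 21.3% and 30% of all tested genes were called lower. KRT19, the keratin with the highest level per length in every group, was at 2598, 2782 and 2739 CPM with DMSO and 2502, 2520 and 2588 CPM under tazemetostat. It was 1372, 1518 and 1550 CPM under ipatasertib and 1316, 1165 and 1157 CPM with the combination. The ipatasertib and combination libraries all lay below the others. The log2 fold changes were -0.87 ± 0.066 under ipatasertib (edgeR adjusted p = 8.37e-10), -0.09 ± 0.066 under tazemetostat (0.251) and -1.16 ± 0.066 with the combination (1.49e-12).

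KRT18, the type I keratin of simple epithelia, was at 1094, 1229 and 1172 CPM with DMSO and 1193, 1406 and 1360 CPM under ipatasertib. It was 994, 915 and 954 CPM under tazemetostat and 1269, 1121 and 1062 CPM with the combination. The tazemetostat libraries were the lowest and did not overlap DMSO (log2 fold change -0.29 ± 0.075, edgeR adjusted p = 0.00323). The ipatasertib value of 0.18 ± 0.075 just missed the threshold (0.0529), and passed it in some other edgeR settings. Among these were library totals (0.0116), no filter on low counts (0.0281) and the 2 groups compared alone (0.0176). Without the A library of every group it passed as well (0.000476), and there KRT18 was also called lower with the combination (-0.137, 0.0111). Its partner KRT8 fell with ipatasertib (-0.22 ± 0.069) and with the combination (-0.36 ± 0.069), and was at 0.00 ± 0.069 under tazemetostat. The ipatasertib call of KRT8 was lost without DMSO B (edgeR adjusted p = 0.0557). KRT8, at 1565 to 1711 CPM with DMSO, was 1202 to 1436 CPM with the combination. The combination A library was the highest of its group for KRT8, KRT18, KRT19 and KRT7. KRT8 and KRT18 lie beside each other and share exon sequence on opposite strands, and 16.3% and 35.9% of their 50-base windows occur in other genes, many of them pseudogenes, so their counts carry this uncertainty.

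KRT7, the type II partner in glandular epithelia, fell from 1063 ± 51.8 CPM with DMSO to 854 ± 70.4 under ipatasertib, 875 ± 12.8 under tazemetostat and 738 ± 73.8 with the combination. The log2 fold changes were -0.32 ± 0.074, -0.28 ± 0.074 and -0.53 ± 0.074 (edgeR adjusted p = 0.00125, 0.00342 and 2.04e-06). The combination value of KRT7 differed from the sum of the single-drug values, the interaction, by 0.07 ± 0.10 (SE, edgeR adjusted p = 0.69).

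Within the type I cluster, tazemetostat raised some genes and lowered others. KRT15, a type I keratin of basal and stem-like epithelial cells, was at 214, 219 and 223 CPM with DMSO and 581, 618 and 622 CPM under tazemetostat. It was 163, 164 and 164 CPM under ipatasertib and 358, 298 and 322 CPM with the combination. All 4 groups were apart, with tazemetostat highest and ipatasertib lowest. The log2 fold changes against DMSO were 1.47 ± 0.067 under tazemetostat (edgeR adjusted p = 8.18e-14), -0.41 ± 0.067 under ipatasertib (2.88e-05) and 0.58 ± 0.067 with the combination (1.28e-07). KRT15 made up 2.23% ± 0.0631 of keratin reads with DMSO and 6.91% ± 0.163 under tazemetostat, and 0.32% of its windows occur in another gene.

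KRT13, a keratin of mucosal surfaces, is the next keratin of the cluster on one side of KRT15 and was low. With tazemetostat alone it moved the same way as KRT15, from 2.35 ± 0.0997 CPM with DMSO to 4.26 ± 0.504 (log2 fold change 0.87 ± 0.17, edgeR adjusted p = 0.000166). With the combination KRT13 was at 1.81 ± 0.460 CPM (-0.34 ± 0.21, edgeR adjusted p = 0.156), where KRT15 was above DMSO. Without the A library of every group, KRT13 was called lower with the combination (-0.624, edgeR adjusted p = 0.0407). On the other side of KRT15 the next keratins are KRT19, KRT9 and KRT14, and their tazemetostat log2 fold changes were -0.09, -0.96 and -0.94. KRT9, a keratin of palm and sole skin, was at 13.0, 13.2 and 13.3 CPM with DMSO and 14.1, 14.7 and 16.4 under ipatasertib. It was 6.55, 6.91 and 6.78 CPM under tazemetostat and 5.37, 5.01 and 5.30 with the combination. Both groups with tazemetostat lay below both groups without it, as for KRT14. KRT9 shares no 50-base window with another gene. KRT16 and KRT17, the next in order, were at 0.25 and -0.21 under tazemetostat, and each of these calls was lost in some other settings.

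**Figure D3:**
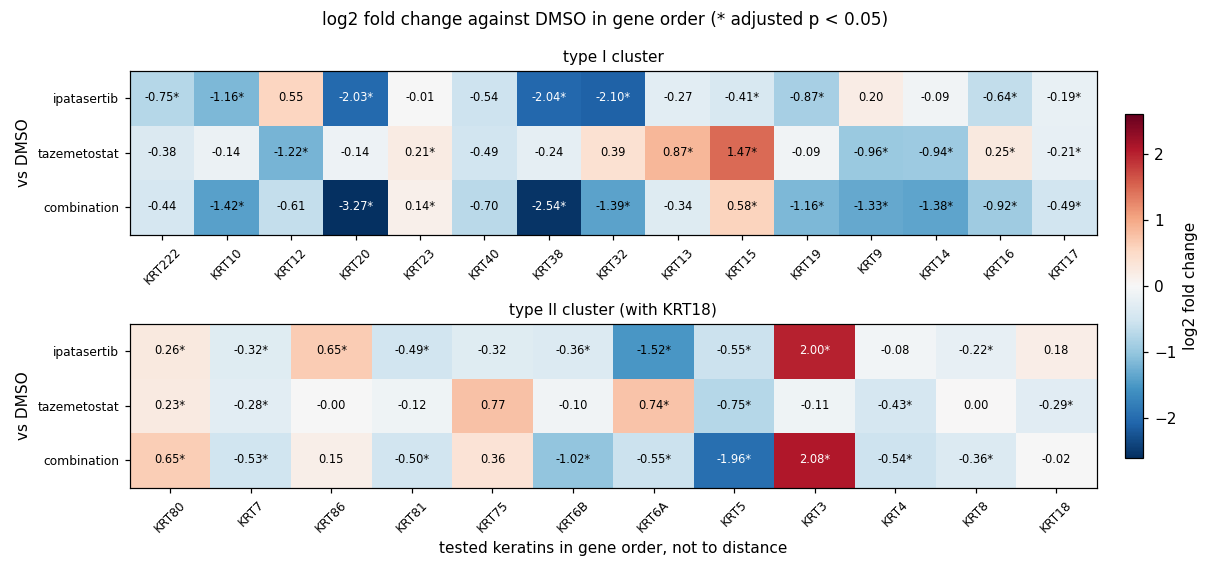
Log2 fold change of the 27 tested keratins against DMSO, with the genes of each cluster in chromosomal order (equal steps, not distance) and a star at adjusted p under 0.05. With tazemetostat KRT13 (0.87) and KRT15 (1.47) rose, KRT9 (-0.96) and KRT14 (-0.94) fell, and KRT19 between them (-0.09) did not pass.

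Several keratins outside the basal and luminal classes fell where ipatasertib was present. KRT10, the type I keratin of suprabasal epidermis, was at 75.5, 74.5 and 73.7 CPM with DMSO and 63.3, 69.5 and 69.6 under tazemetostat. It was 32.4, 33.5 and 34.3 CPM under ipatasertib and 31.8, 26.4 and 25.2 with the combination. Libraries with ipatasertib were all under those without it, and the log2 fold changes were -1.16 ± 0.079 (edgeR adjusted p = 1.48e-10) and -1.42 ± 0.082 (1.75e-12). The tazemetostat value was -0.14 ± 0.075 (0.125).

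KRT38, a type I hair keratin, showed the same order at a lower level. It was at 6.56, 7.40 and 6.11 CPM with DMSO, 1.35, 1.815 and 1.695 under ipatasertib, 4.93, 6.42 and 5.49 under tazemetostat and 1.39, 1.06 and 0.906 with the combination. The log2 fold change was -2.04 ± 0.16 under ipatasertib and -2.54 ± 0.19 with the combination (edgeR adjusted p = 1.86e-09 and 1.68e-10), which left 0.242 and 0.171 of the DMSO level. KRT10 and KRT38 both have TATAAA near the start in the promoters printed above, and so do 13 other keratins at -35 to -25, of which KRT3 alone had reads enough to be tested.

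KRT81, a type II hair keratin that breast lines express, fell from 81.8 ± 1.93 CPM with DMSO to 58.1 ± 3.92 under ipatasertib and 57.7 ± 6.08 with the combination (log2 fold changes -0.49 and -0.50). Its neighbour KRT86, also a hair keratin, was higher with ipatasertib, at 7.12 ± 0.727 against 4.54 ± 0.306 CPM (0.65 ± 0.13, edgeR adjusted p = 0.000398). These genes share 43.7% and 39.7% of their windows with other genes, more often with each other than with any other gene, so reads may be exchanged between them. Of the 5 tested hair keratins, tazemetostat gave 0 calls in edgeR, also 0 at an unadjusted p under 0.05, and 0 in DESeq2. In edgeR, 21.3% of all tested genes were called lower and 25.9% higher with tazemetostat. At an unadjusted p under 0.05, 3629 of the 14571 genes were lower and 4201 higher.

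KRT16, which is induced in stressed epidermis, was at 69.9, 80.2 and 73.3 CPM with DMSO and 47.4, 47.6 and 48.7 under ipatasertib. It was 85.5, 92.95 and 86.7 CPM under tazemetostat and 42.5, 35.3 and 40.1 with the combination. Tazemetostat alone raised it (0.25 ± 0.074, edgeR adjusted p = 0.00799), and the combination was the lowest group (-0.92 ± 0.078, 1.11e-09). The tazemetostat call was lost without DMSO A (edgeR adjusted p = 0.0568) and without tazemetostat B (0.0626). KRT4, a type II keratin of mucosal surfaces, fell with tazemetostat and the combination (-0.43 and -0.54) from 80.0 ± 3.40 CPM with DMSO, to 59.3 ± 5.83 and 55.1 ± 5.85.

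KRT80, a type II keratin found in many epithelia, rose in each treated group. It was at 64.1 ± 2.01 CPM with DMSO, 76.8 ± 5.19 under ipatasertib, 75.3 ± 7.75 under tazemetostat and 100.4 ± 6.26 with the combination, with log2 fold changes of 0.26, 0.23 and 0.65. The ipatasertib call was lost without ipatasertib A (edgeR adjusted p = 0.0762) or DMSO C (0.051), and the tazemetostat call without tazemetostat B (0.146), tazemetostat C (0.111), DMSO B (0.0559) or DMSO C (0.0855). The combination call was kept without each library in turn. KRT23, a type I keratin of simple epithelia, rose with tazemetostat from 228 ± 2.91 to 263 ± 3.40 CPM (0.21 ± 0.061, edgeR adjusted p = 0.00745). Its combination value of 0.14 ± 0.062 (edgeR adjusted p = 0.0486) lost its call in most other settings, among them DESeq2 (0.0512), the replicate block in edgeR (0.083) and no filter on low counts (0.209).

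The other 8 tested keratins reached 0.609 to 4.26 CPM in their highest group. KRT3, a corneal keratin, had 5 to 7 reads per library with DMSO and 9 to 31 under ipatasertib, and was called higher with ipatasertib and with the combination (log2 fold changes 2.00 ± 0.46 and 2.08 ± 0.48). KRT20, a keratin of gut epithelium, had 11 to 27 reads with DMSO and 2 to 5 under ipatasertib, and 0 to 3 with the combination. KRT32, a hair keratin, had 8 to 16 reads with DMSO and 1 to 3 under ipatasertib. KRT20 and KRT32 were both called lower with ipatasertib (edgeR adjusted p = 0.00653 and 0.00272), and the KRT20 call was lost without DMSO C (0.0536). KRT12, a corneal keratin, and KRT222 were called lower with tazemetostat and with ipatasertib respectively, and both calls were lost in DESeq2 (adjusted p = 0.0736 and 0.0565). KRT40 and KRT75 were not called in any comparison. At such depths a gene could pass the filter through the groups in which it was high.

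**Figure D4:**
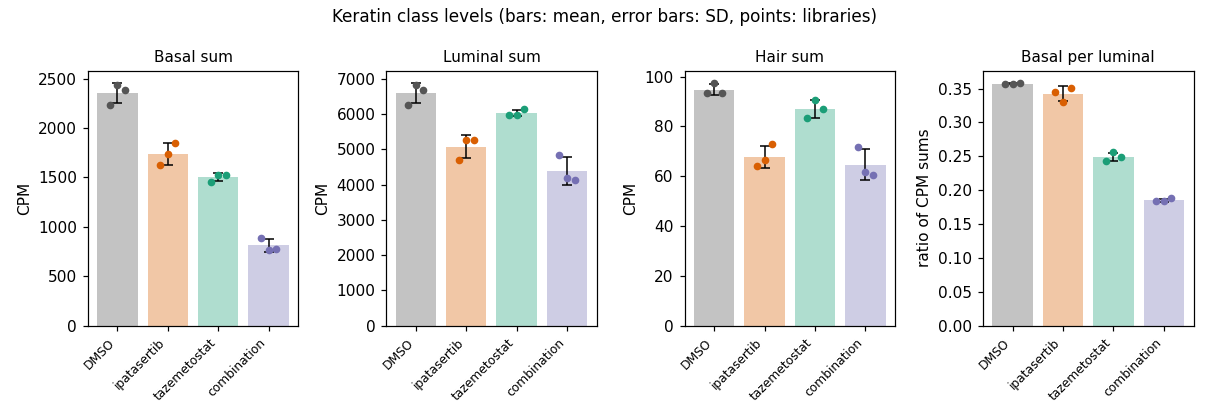
Summed CPM of the basal, luminal and hair keratins and the ratio of the basal to the luminal sum, per library (points), with group means (bars) and SD. The basal sum, which does not hold KRT15, falls from 2355 to 812 CPM across the groups and the ratio from 0.357 to 0.185. The hair sum is lower in both groups with ipatasertib.

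The class sums describe how the keratin mixture differed between groups, with no test. The basal sum was 2238, 2435 and 2391 CPM with DMSO, 1624, 1736 and 1848 under ipatasertib, 1454, 1526 and 1524 under tazemetostat and 890.2, 770 and 775 with the combination. KRT5 made up 88.4%, 81.6% and 82.7% of the fall of this sum from DMSO in the 3 treated groups. The luminal sum was 6589 ± 292, 5075 ± 319, 6024 ± 92.3 and 4386 ± 397 CPM in the same order of groups. The hair sum was 94.8 ± 2.30, 67.8 ± 4.49, 87.0 ± 3.64 and 64.7 ± 6.23 CPM, most of it KRT81. The basal sum per luminal sum was 0.357 ± 0.000938 with DMSO, 0.342 ± 0.0110 under ipatasertib, 0.249 ± 0.00610 under tazemetostat and 0.185 ± 0.00238 with the combination. Without KRT5 the same ratio was 0.0966, 0.111, 0.0796 and 0.0841, so its order changed and the ipatasertib group became the highest. KRT15, also a keratin of basal cells, is not in the basal sum, and stood at 218.5, 163.9, 607.1 and 326 CPM in these groups. It rose with tazemetostat and with the combination, where the basal sum fell. The fall of the ratio therefore holds for the basal class as listed, and a ratio with KRT15 was not computed.

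Per kilobase of coding sequence, KRT8 per KRT18 and KRT5 per KRT14 were lower in both groups that received ipatasertib than in both that did not. KRT8 per KRT18 was 1.20 ± 0.0211 with DMSO, 0.909 ± 0.0510 under ipatasertib, 1.46 ± 0.0937 under tazemetostat and 0.940 ± 0.0335 with the combination. KRT5 per KRT14 was 6.26 ± 0.213, 4.56 ± 0.0877, 7.16 ± 0.200 and 4.19 ± 0.117 in this order. KRT15 per KRT14 was 1.03 ± 0.0111 with DMSO and 5.51 ± 0.145 under tazemetostat, the largest shift of these ratios. KRT7 per KRT19 was 0.335 ± 0.00473 with DMSO and rose to 0.491 ± 0.0102 under ipatasertib and 0.518 ± 0.0134 with the combination. Summed type I over type II keratins was 1.35 ± 0.00416, 1.27 ± 0.0321, 1.602 ± 0.0365 and 1.49 ± 0.0318.

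Set against each drug alone, the combination had more tested keratins called lower than higher. Adding tazemetostat to ipatasertib lowered 13 of 27 and raised 4, where 20.7% of all genes were called lower and 24.2% higher. KRT9 (-1.53 ± 0.11), KRT5 (-1.40 ± 0.069) and KRT14 (-1.28 ± 0.071) fell most in this comparison at 5 CPM or more, and KRT15 rose (0.99 ± 0.068). Adding ipatasertib to tazemetostat lowered 17 and raised 3, against 23.1% and 23.2%. KRT38 (-2.31 ± 0.20), KRT10 (-1.27 ± 0.082), KRT5 (-1.21 ± 0.069), KRT16 (-1.17 ± 0.078) and KRT19 (-1.06 ± 0.066) fell most there at 5 CPM or more. KRT81 was at -0.01 ± 0.078 when tazemetostat was added to ipatasertib, the smallest value among the named genes.

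**Figure D5:**
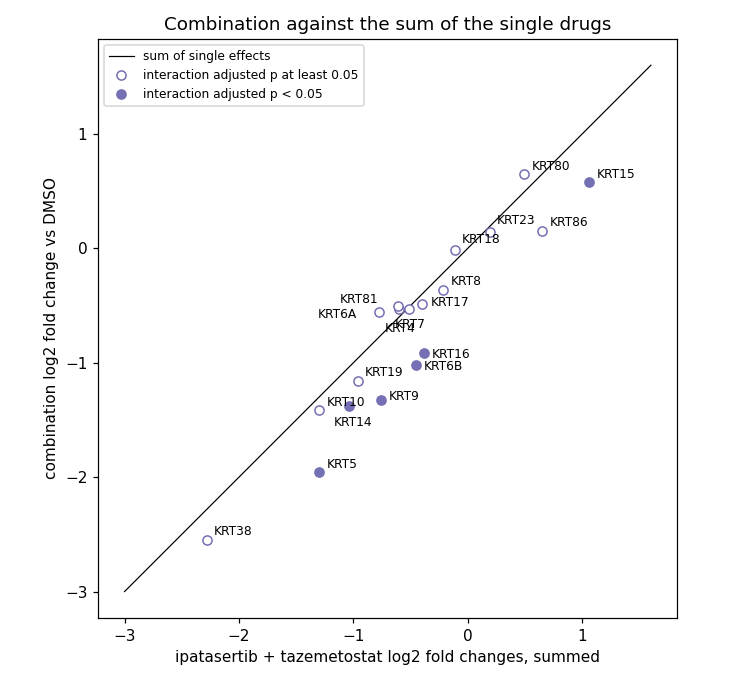
Combination log2 fold change of the 19 keratins against the sum of the single-drug log2 fold changes, with the line of equality. Filled points, all under the line, passed adjusted p under 0.05 for the interaction (KRT5, KRT6B, KRT9, KRT14, KRT15 and KRT16).

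The interaction asks whether the combination departed from the sum of the single-drug log2 fold changes, which is the same as asking whether the ipatasertib effect differed with and without tazemetostat. Of 27 tested keratins, 7 had a combination level below that sum and 0 above it. Of all genes, 6.01% were called lower and 5.96% higher. At an unadjusted p under 0.05 in edgeR, 9 keratins were below and 0 above, where 2212 of all 14571 genes were lower and 2043 higher. DESeq2 gave an adjusted p for only part of the 27. It called 6 keratins below and 0 above, and 2153 genes in all, 1067 of them higher. KRT5 departed most surely, at -0.66 ± 0.096 (SE, edgeR adjusted p = 0.000512), followed by KRT15 (-0.48 ± 0.094, 0.00357), KRT16 (-0.53 ± 0.11, 0.00456) and KRT6B (-0.57 ± 0.13, 0.00836). For KRT9 (-0.57 ± 0.15, 0.018) the call was lost without ipatasertib C, tazemetostat B or combination B. For KRT14 (-0.34 ± 0.098, 0.0293) and KRT13 (-0.94 ± 0.27, 0.029) it was lost without most single libraries, among them each DMSO library. These 2 calls were also lost with the replicate block (edgeR adjusted p = 0.0625 and 0.0544). Ipatasertib alone left KRT14 and KRT9 at log2 fold changes of -0.09 and 0.20 that did not pass, and on top of tazemetostat it lowered both (-0.43 ± 0.071 and -0.37 ± 0.12, edgeR adjusted p = 3.67e-05 and 0.0138). The 4 luminal keratins had interactions of -0.19 to 0.09, none of them called. Without the A library of every group, 13 keratins were below the sum, the 7 and KRT4, KRT8, KRT10, KRT17, KRT19 and KRT86. In that fit 5452 of 14613 tested genes were called for the interaction, 47.8% of them higher, against 1744 of 14571 in the reported fit.

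The genes around the keratins were counted from 3 lists, to be read against all tested genes, of which 24% were called higher and 23.1% lower with ipatasertib, 25.9% and 21.3% with tazemetostat, and 34.4% and 30% with the combination. Of 12 tested anchors, which tie keratins to junctions, ipatasertib raised 5 and lowered 3, tazemetostat raised 6, and the combination raised 7 and lowered 2. DST, which links keratins to hemidesmosomes, rose with the combination from 59.7 to 125 CPM (log2 fold change 1.07), the desmosomal cadherin DSC3 by 0.91 and the desmosomal plakin DSP by 0.58, while PKP3 fell (-0.65). Of 8 tested other filament and lamin genes, ipatasertib lowered 4, tazemetostat raised 2 and lowered 2, and the combination raised 2 and lowered 4. VIM, the intermediate filament of mesenchymal cells, rose from 20.3 CPM with DMSO to 59.5 under tazemetostat and 62.7 with the combination, and the nuclear lamina gene LMNB1 fell from 459 to 249 CPM with the combination. The fibroblast markers did not all move as VIM did. LUM was at 0 with DMSO, 2.30 CPM under tazemetostat and 1.84 with the combination. COL1A1 was at 10.7, 14.4 and 8.28 CPM in these groups, and was called lower with the combination (edgeR adjusted p = 0.0136). FAP was at 0.961, 0.762 and 1.78 CPM. At low levels, DCN went from 0 to 0.329 and 0.141 CPM and COL3A1 from 0.0635 to 0.45 and 0.256. COL1A2, PDGFRB and THY1 averaged at most 0.0468, 0.1 and 0.0554 CPM in any group. The part of these genes in the VIM value was not tested. Of 17 tested regulators of epithelial genes, ipatasertib raised 5 and lowered 3, tazemetostat raised 8 and lowered 4, and the combination raised 10 and lowered 2. KLF4, a factor of epidermal differentiation, rose with the combination from 3.96 to 12.1 CPM (1.61), and GATA3, a luminal factor, from 94.8 to 189 CPM (0.99). GATA3, TP63 and TFAP2C were above the sum of the single effects (interactions 0.53, 1.13 and 0.30, edgeR adjusted p = 0.0038, 0.024 and 0.034), while TP63, a basal factor, stayed at 2.53 CPM or less.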

How the data were processed

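Poly(A) RNA was measured in 12 libraries of MDA-MB-468 cells. The authors deposited 1 table of raw counts by gene symbol per library. STAR, SAMtools, HTSeq, DESeq2 and hg19 are named in the submitters' processing notes, without versions. Annotation and strand setting: not given in the sources used here. Lines without a gene name stayed out of totals and tests. Reads not uniquely aligned took 10.1% to 12.6% of the counted total and ambiguous reads 1.54% to 1.83%, and neither enters a keratin count. This can lower the counts of near-identical keratins.

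Tests on these counts used edgeR 4.0.16 in R 4.3.3, with genes kept by filterByExpr at a minimum count of 10, TMM scaling, 1 robust quasi-likelihood fit over 12 libraries with 8 residual degrees of freedom, and Benjamini-Hochberg adjustment over 14571 genes at 0.05. CPM values use TMM-scaled totals, and precision is limited by 3 libraries per group. Coding lengths, gene order and shared windows of 50 bases came from GENCODE 29 and RefSeq. Genes were described singly at 5 CPM or more in a group, or at 1 CPM with a called log2 fold change of at least 1. KRT13, KRT3, KRT20, KRT32, KRT12, KRT222, KRT40 and KRT75 fall outside this rule and were named after their values were seen. The members, classes and lists were chosen with earlier results of these data known. Between ipatasertib and DMSO, libraries of the same letter had correlations of deviations of 0.388, 0.129 and 0.102 for A, B and C, all over 0.1. Ipatasertib C was nevertheless closest to DMSO B, so the letters did not pair every library. In no other comparison were all letters over 0.1. Other settings tried were DESeq2 1.42.0, RLE factors, plain library totals, 2 other filters, an adjusted p of 0.01, fits to the groups compared alone, the replicate block, and fits without 1 library or the A libraries.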

Additional observations from a re-analysis of the deposited data

Results flagged for a closer look

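For 7 keratins the ipatasertib effect differed with and without tazemetostat in the edgeR interaction test. The difference on the log2 scale was -0.655 for KRT5, -0.481 for KRT15, -0.531 for KRT16, -0.567 for KRT6B, -0.566 for KRT9, -0.338 for KRT14 and -0.94 for KRT13 (edgeR adjusted p = 0.000512, 0.00357, 0.00456, 0.00836, 0.018, 0.0293 and 0.029). With the replicate block the KRT14 and KRT13 values did not pass (edgeR adjusted p = 0.0625 and 0.0544), nor did they without most single libraries. KRT5, the most abundant of them, fell by 1.21 on the log2 scale when ipatasertib was added to tazemetostat and by 0.55 when it was added to DMSO. KRT15 was lowered by ipatasertib in both settings, by 0.90 under tazemetostat and by 0.41 without.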

How the results depend on the processing

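Over 162 gene results and 20 settings, 0 of 3147 alternative values reversed a called direction, 109 lost a call, 30 gained one and 3008 kept their side of the threshold. Counts of called keratins for the 5 comparisons of groups stayed within 1.5 times the reported ones. The count of interaction calls, 7, was 13 without the A library of every group (all 7 among them), 4 at an adjusted p of 0.01, and 4 to 9 with 1 library left out. It was 4 without ipatasertib C, tazemetostat B or combination B. With the replicate block it was 5: KRT13 and KRT14 were lost (edgeR adjusted p = 0.0544 and 0.0625). Over all genes, interaction calls numbered 1744 in the reported fit, 1012 with the block and 5452 without the A libraries. They numbered 397 at an adjusted p of 0.01, and 674 to 3681 with 1 library left out. The keratin counts are to be read against these. The block gave 17, 13 and 19 called keratins against DMSO for ipatasertib, tazemetostat and the combination, where 18, 14 and 20 are reported. With library totals, the tazemetostat log2 difference of the summed keratins was -0.577 for basal, -0.058 for luminal and -0.054 for hair (reported -0.648, -0.129 and -0.125), and higher genes made up 67.9% of all tazemetostat calls (reported 54.9%) and 33.6% of interaction calls (49.8%). With that scaling the median log2 fold change of all genes was 0.047, 0.08 and 0.092 for ipatasertib, tazemetostat and the combination against DMSO (reported 0.004, 0.009 and 0.03). The cause of these differences was not tested. At 3 reads per library, keratins under about 0.228 CPM are not distinguished from 0.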
